A study of Mus musculus with 23 samples.

Results

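The transcripts described here are those of the aminoacyl-tRNA synthetases, chosen by gene symbol. The group had 35 members of the 18512 symbols in the files, 20 for enzymes that work in the cytosol and 15 for enzymes that work in mitochondria. *Lars2* was left out beforehand, because its reads follow ribosomal RNA in these libraries. All 35 members had enough counts to be tested, among 12195 genes that did.

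The samples were from the head of the pancreas of 23 C57BL/6 mice aged 6 to 8 weeks. The baseline group had 8 non-injured mice (4 female, 4 male). The other groups had received 8 hourly injections of caerulein at 50 µg/kg on each of 2 days, which causes acute pancreatitis, and were left to recover until day 7 (4 female, 4 male) or day 14 (3 female, 4 male). Total RNA was depleted of ribosomal RNA and sequenced, and the values are counts of fragments per gene. The comparisons ask how far gene expression had returned to baseline at each time point and whether recovery differed between the sexes.

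An aminoacyl-tRNA synthetase joins an amino acid to the tRNA that reads its codons, so every protein made in a cell depends on these enzymes. Most amino acids have one gene for the cytosolic enzyme and another, nuclear as well, for the mitochondrial enzyme, while *Gars* and *Kars* give both forms and *Eprs* encodes a single chain for glutamate and proline. Acinar cells of the pancreas make large amounts of digestive enzymes, and the transcription factor ATF4, which is translated when amino acids are short or the endoplasmic reticulum is stressed, is known to raise many cytosolic synthetase genes through DNA elements that join half-sites of the C/EBP and ATF families.

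Total counts ranged from 7059890 to 9567446 per mouse, and the 20 most abundant genes held 55.3% to 71.2% of them. Counts were scaled with TMM factors of 0.77 to 1.4, which were higher at day 7 (mean 1.18 ± 0.11, SD, n = 8) than at baseline (0.86 ± 0.073, n = 8). The 17 acinar markers, all detected, had a summed level of 387723 to 574087 CPM (counts per 1000000 scaled counts) in baseline mice and of 230804 to 350467 in day 7 mice, which makes them the largest share of the marker lists in every mouse. At day 7, 14 of these 17 were lower (adjusted p at most 0.05), while 7 of 8 fibroblast and 7 of 8 macrophage markers were higher. In bulk tissue, fewer cells of a type and less RNA per cell cannot be told apart. The part of these shifts in the synthetase values below was not tested.

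The 5 synthetase genes below carry the letters TGATGNAA near their start site, a form of the C/EBP-ATF element, and are given as stretches of 30 bases. They are all of the members searched that held these letters. Their relation to *Atf4* from mouse to mouse is given further below. Of the 35 members, 26 had a window of 250 bases before to 50 bases after the start site in RefSeq on GRCm38.p6, and both strands of each window were read. The motif is in capitals, each stretch is written 5′ to 3′ on the strand that holds TGATGNAA, and that strand and the place of the motif relative to the start site follow the sequences.
*Aars*, chr8:111033840-111033869: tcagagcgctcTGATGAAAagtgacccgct
*Gars*, chr6:55037960-55037989: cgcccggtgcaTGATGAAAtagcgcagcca
*Iars*, chr13:49682126-49682155: gcgtctggaggTGATGCAAtactgacagtg
*Tars*, chr15:11399655-11399684: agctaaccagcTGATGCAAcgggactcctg
*Yars*, chr4:129189895-129189924: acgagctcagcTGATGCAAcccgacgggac
The *Aars*, *Gars* and *Iars* stretches lie on the minus strand, opposite to the gene. The *Tars* stretch lies on the plus strand, also opposite to the gene, and the *Yars* stretch on the plus strand in the direction of the gene. Counted along the gene with the start base as 1, the motif shown for *Aars* began at base 10, that of *Gars* 30 bases before the start base, that of *Iars* at base 8, that of *Tars* 15 bases before and that of *Yars* at base 4. All 5 genes encode cytosolic enzymes and stand in the list of 13 ATF4-linked synthetases, of which 8 had a window. Counted by gene, the motif was found for 5 of 13 cytosolic and 0 of 13 mitochondrial members with a window. Counted by window, it was in 3.97% of all 32851 windows of the table, where a gene can have more than 1. A match describes these letters only.

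The cytosolic transcripts were more abundant than the mitochondrial ones. Divided by the exonic length of the gene, *Wars*, for the tryptophanyl enzyme, had the highest baseline level at 49.4 ± 13 CPM per kb (SD, n = 8). It was followed by *Nars* (asparagine, 35.8 ± 6.17), *Gars* (glycine, 31.7 ± 3.52) and *Mars* (methionine, 28.1 ± 2.16). The median over the 20 cytosolic members was 11.04 CPM per kb and that over the 15 mitochondrial members was 1.76. The lowest cytosolic level was 3.07 ± 0.25 for *Farsa*, a subunit of phenylalanyl-tRNA synthetase, below the mitochondrial *Rars2* (3.74 ± 0.47) and *Iars2* (3.15 ± 0.23). The other subunit, *Farsb*, stood at 8.53 ± 1.13 CPM per kb. The lowest level of all was that of *Pars2*, for the mitochondrial prolyl enzyme, at 0.35 ± 0.15. This order depends on the division by length. In CPM at baseline *Farsa* (13.9 ± 1.15) was above *Rars2* (10.4 ± 1.31) and below *Iars2* (28.0 ± 2.00). *Eprs*, with 18102 exonic bases, stood at 138 ± 19.9 CPM but at 7.65 ± 1.10 CPM per kb.

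**Figure D1:**
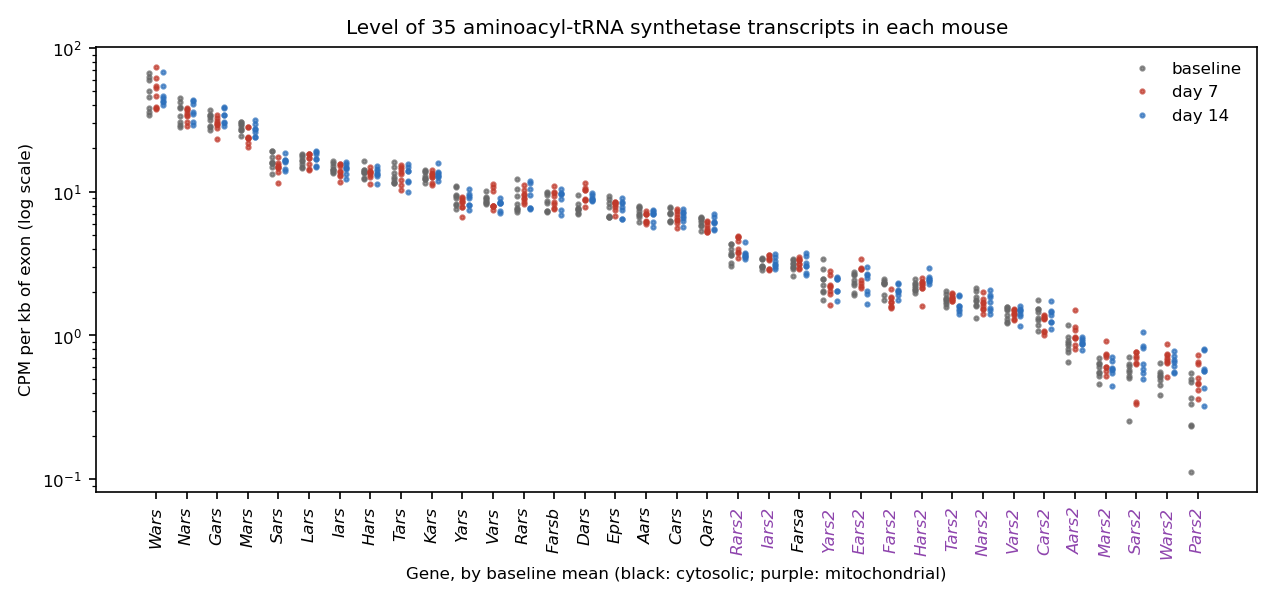
CPM per kb of exon (log scale) of 35 synthetase transcripts, ordered by their baseline mean, with 1 point per mouse (grey: baseline, red: day 7, blue: day 14) and gene names in black for cytosolic and purple for mitochondrial enzymes. The levels fall from 49.4 for *Wars* to 0.35 for *Pars2* at baseline, and within each gene the 3 groups lie over each other.

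Of the 34 pairs of neighbours in this order, 31 had baseline ranges that overlapped, so most neighbouring ranks did not differ beyond the spread between mice. The gaps without overlap were those between *Mars* and *Sars*, between *Kars* and *Yars*, and between *Qars* and *Rars2*. For the 12 amino acids with a cytosolic and a mitochondrial member compared, the cytosolic transcript was higher in every case, and the baseline ratio of levels per kb had a median of 6.80. The ratio was 98.3 ± 30.8 (SD, n = 8) for *Wars* against *Wars2*, 49.1 ± 7.76 for *Mars* against *Mars2* and 32.6 ± 12.7 for *Sars* against *Sars2*. At the other end it was 2.38 ± 0.52 for *Rars* against *Rars2* and 4.001 ± 1.11 for *Yars* against *Yars2*. These ratios depend on the exonic lengths, which were 3423 bases for *Mars* and 11294 for *Mars2*. Without division by length, the baseline means were 96.3 CPM for *Mars* and 6.57 for *Mars2*. They were 84.6 for *Sars* and 1.81 for *Sars2*, so the order of the *Mars* and *Sars* ratios turns on this division.

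At day 7, most synthetase transcripts stood close to baseline. With edgeR's quasi-likelihood test and Benjamini-Hochberg adjustment over all genes, 4 of 35 members (11.4%) had an adjusted p of at most 0.05, against 18.6% of the 12195 genes tested. *Dars* and *Wars2* rose (2 of 35, background 8.86%) and *Mars* and *Fars2* fell (2 of 35, background 9.7%). The count over all members was below the background. Of the 35 members 0 both passed and reached a fold of 1.5, while 5.13% of all genes did both. The median log2 fold change was -0.03 over the cytosolic members, 0.05 over the mitochondrial members and 0.02 over all genes tested. The 95% interval of the fold change lay within a fold of 1.5 for 32 of 35 members, compared with 69.4% of all genes. All 20 cytosolic members were among the 32, and the exceptions were *Pars2*, *Sars2* and *Wars2*, which have few counts.

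**Figure D2:**
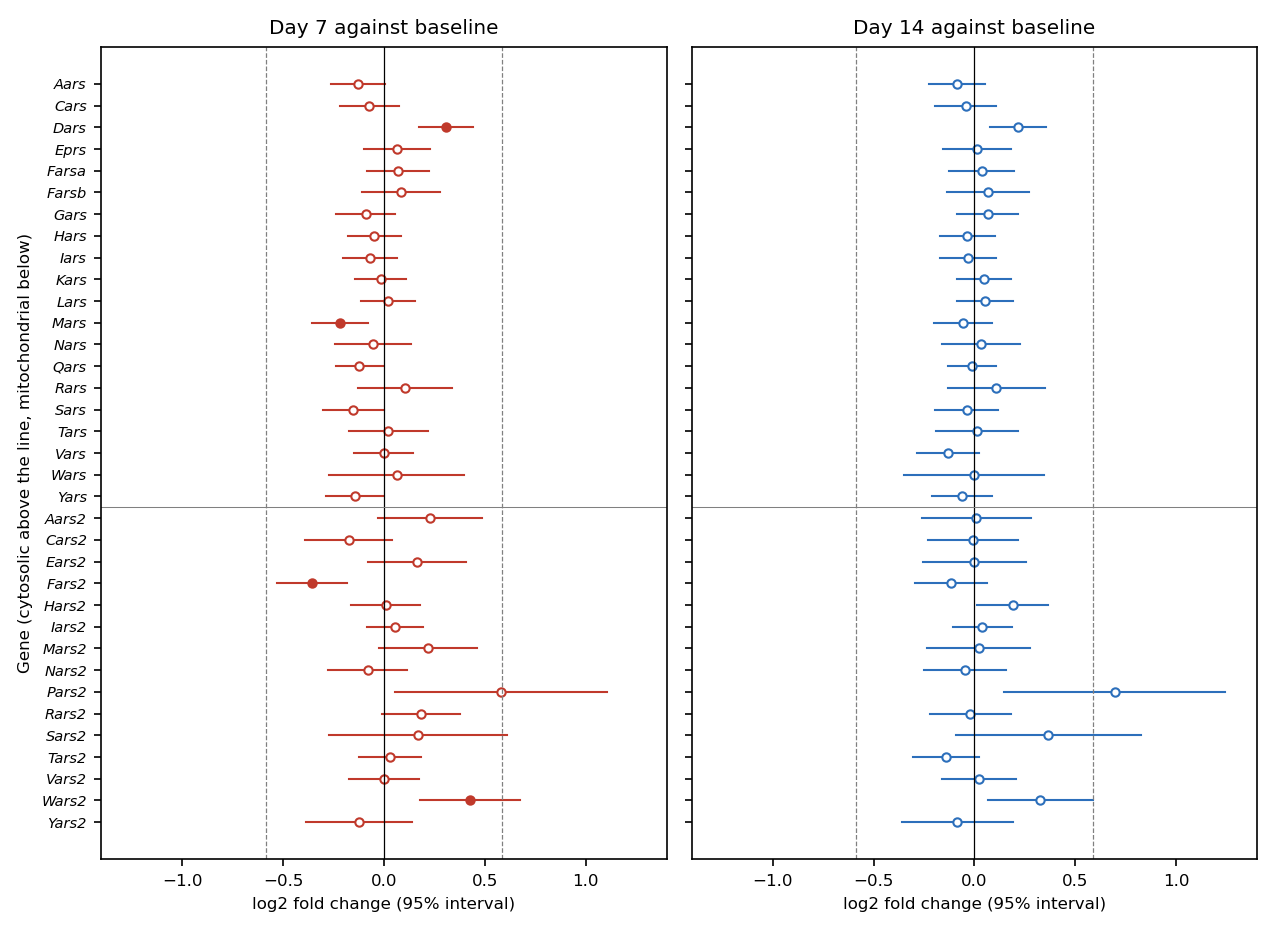
Log2 fold change (point) and 95% interval (line) of each of 35 synthetase transcripts at day 7 (left, red) and day 14 (right, blue) against baseline, from edgeR with TMM scaling; filled points have an adjusted p of at most 0.05 and dashed lines mark a fold of 1.5. Filled points are *Dars*, *Mars*, *Fars2* and *Wars2* at day 7, and there is 0 at day 14.

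*Dars* (chr1:128363707-128417368 on GRCm38, minus strand) encodes the cytosolic aspartyl enzyme, a member of the multi-synthetase complex. Its level was 30.5 to 41.4 CPM in the baseline mice (median 33.2), 34.3 to 50.1 at day 7 (median 41.7) and 37.7 to 42.8 at day 14 (median 38.9). The ranges overlapped, with 4 of 8 day 7 mice above every baseline mouse. The log2 fold change at day 7 was 0.31 (SE 0.066, adjusted p = 0.00162 in edgeR). At day 14 it was 0.22 (SE 0.068, adjusted p = 0.121), the smallest adjusted p of any member at that time.

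*Mars* (chr10:127296221-127311786, minus strand) encodes the methionyl enzyme, which charges the initiator tRNA as well as the elongator tRNA and belongs to the same complex. Its level was 83.2 to 105 CPM at baseline (median 96.7), 69.6 to 96.4 at day 7 (median 81.3) and 82.6 to 108 at day 14 (median 93.3). At day 7, 6 of 8 mice were below every baseline mouse, and at day 14 this was so for 2 of 7. The log2 fold change at day 7 was -0.22 (SE 0.068, adjusted p = 0.0242 in edgeR). The call was lost without single mice or without the filter: the adjusted p was 0.0576 without baseline mouse 1, 0.0529, 0.0501 and 0.0589 without day 7 mice 10, 14 and 15, and 0.0540 with no filter on low counts.

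*Fars2* (chr13:36117412-36726280, plus strand) encodes the mitochondrial phenylalanyl enzyme, a single chain unlike its cytosolic counterpart. Its level was 10.1 to 14.2 CPM at baseline (median 13.4), 8.93 to 12.1 at day 7 (median 9.84) and 10.2 to 13.3 at day 14 (median 11.7). At day 7, 5 of 8 mice were below every baseline mouse, and at day 14 this was so for 0 of 7. The log2 fold change at day 7 was -0.36 (SE 0.085, adjusted p = 0.00365 in edgeR). The cytosolic subunits *Farsa* (0.07, adjusted p = 0.558) and *Farsb* (0.08, adjusted p = 0.575) did not pass the test.

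*Wars2* (chr3:99141068-99239186, plus strand) encodes the mitochondrial tryptophanyl enzyme. Its level was 2.30 to 3.82 CPM at baseline (median 3.10), 3.03 to 5.20 at day 7 (median 4.08) and 3.28 to 4.61 at day 14 (median 3.92), from 15 to 52 counts per mouse. At day 7, 6 of 8 mice were above every baseline mouse, and at day 14 this was so for 4 of 7. The log2 fold change at day 7 was 0.43 (SE 0.12, adjusted p = 0.0138 in edgeR), and the adjusted p was 0.0561 in DESeq2.

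**Figure D3:**
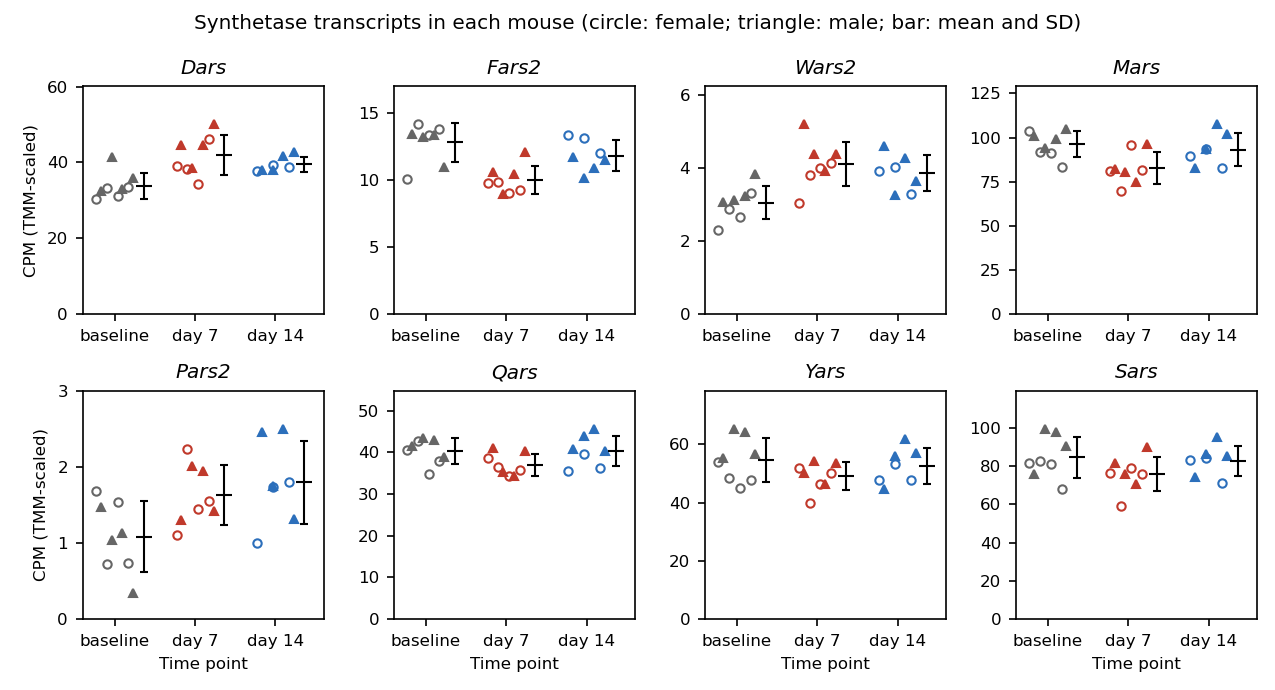
TMM-scaled CPM of 8 synthetase transcripts in each mouse of the 3 groups, with open circles for females, triangles for males and bars for the mean and SD of each group. In every panel the groups overlap, and the means of *Dars* and *Wars2* are highest and those of *Mars* and *Fars2* lowest at day 7.

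A further 4 members had the next smallest p at day 7, and none of the 4 passed after adjustment. *Pars2* (chr4:106651069-106655282) was measured at 0.35 to 1.69 CPM in baseline mice (median 1.08), 1.11 to 2.24 in day 7 mice (median 1.501) and 1.01 to 2.51 in day 14 mice (median 1.76). These levels came from 2 to 30 counts per mouse, and 3 of 8 day 7 mice were above every baseline mouse. The lowest baseline value, from 2 counts, was under the count of 3 taken as the smallest detectable. Its log2 fold change was 0.58 with a 95% interval of 0.05 to 1.10 at day 7 (adjusted p = 0.117 in edgeR) and 0.69 with an interval of 0.15 to 1.24 at day 14 (adjusted p = 0.221 in edgeR). A difference in *Pars2* was therefore poorly bounded at this depth.

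The other 3 encode the cytosolic enzymes for glutamine, tyrosine and serine. *Qars* (chr9:108507706-108515941) stood at 34.8 to 43.5 CPM at baseline and 34.4 to 41.1 at day 7, with a log2 fold change of -0.12 (adjusted p = 0.137 in edgeR). *Yars* (chr4:129189760-129219607) stood at 45.0 to 65.3 and 39.9 to 54.4 CPM, with a log2 fold change of -0.15 (adjusted p = 0.146 in edgeR). *Sars* (chr3:108424865-108445209) stood at 67.8 to 99.5 and 59.0 to 89.8 CPM, with a log2 fold change of -0.15 (adjusted p = 0.150 in edgeR). The ranges of all 3 overlapped between the groups, and at day 14 their log2 fold changes were -0.01, -0.06 and -0.04.

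The remaining 27 members had log2 fold changes between -0.18 (*Cars2*) and 0.23 (*Aars2*) at day 7. Among the 8 enzymes of the multi-synthetase complex 1 rose and 1 fell (median 0.00), and among the 12 cytosolic members outside it 0 passed (median -0.05), with 2 at an unadjusted p under 0.05 in edgeR. Among the 13 ATF4-linked synthetases *Mars* alone passed (median -0.07), and among the 7 other cytosolic members *Dars* alone did (median 0.07). Class I and class II enzymes, which differ in the fold of their catalytic domain, had 1 of 9 and 1 of 10 members past the test. These shares stand beside the 18.6% of all genes that passed, and 3925 of 12195 genes had an unadjusted p under 0.05.

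The scaling of the libraries set the sign of several of these values. With total counts in place of TMM factors the median of all genes moved from 0.02 to 0.47 at day 7, and 34 of 35 members were called higher and 0 lower, in place of 2 and 2, while 9336 of 12195 genes were called. On that scale *Fars2* (0.09) and *Mars* (0.23) lay below the median of all genes and *Dars* (0.76) and *Wars2* (0.87) above it. This is the same order as with TMM factors. A change of scaling moves all genes nearly alike, so the order could hardly change and adds no weight to the calls. As a share of all counts, the 20 cytosolic members together took 0.123% ± 0.0052 at baseline (SD, n = 8), 0.164% ± 0.010 at day 7 (n = 8) and 0.143% ± 0.012 at day 14 (n = 7). The top 20 genes took 69.4% ± 1.48, 60.3% ± 2.43 and 65.0% ± 0.87 in the same groups, and their part in the difference was not tested.

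Other genes of protein synthesis differed in how many moved at day 7. Of 38 translation initiation and elongation factors 3 rose and 12 fell (39.5%, median -0.07). *Eef2*, which moves the ribosome along the mRNA, fell by 0.73 on the log2 scale (adjusted p = 1.45e-08 in edgeR), and *Eef1a1*, which brings the charged tRNA to the ribosome, fell by 0.49 (adjusted p = 1.95e-06 in edgeR). Of 27 genes of the list of *Atf4* and its targets other than synthetases 8 fell and 0 rose (29.6%, median -0.21), among them *Psat1* of serine synthesis (log2 fold change -0.74, adjusted p = 0.000376 in edgeR). *Atf4* itself had 119 ± 12.7 CPM at baseline (SD, n = 8), 108 ± 7.23 at day 7 (n = 8) and 115 ± 18.9 at day 14 (n = 7), and did not pass (log2 fold change -0.14, adjusted p = 0.220 in edgeR). The median of the ATF4-linked synthetases, -0.07, was nearer to 0 than that of the other targets.

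Among 16 partners of the synthetases and related aminoacylation genes, *Aarsd1*, which removes wrongly placed amino acids from tRNA, fell (log2 fold change -0.25, adjusted p = 0.0222 in edgeR) and 0 rose. On the mitochondrial side, 0 of 9 translation factors passed in edgeR, with 1 at an unadjusted p under 0.05, and of 77 mitochondrial ribosomal proteins 1 rose and 3 fell (5.19%). The synthetase lists, at 10% of the cytosolic and 13.3% of the mitochondrial members, lay between these lists and the cytosolic translation factors. No test compared the lists with each other.

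At day 14, 0 of 35 members passed against baseline, where 1.57% of all genes did in edgeR. At an unadjusted p under 0.05 there were 4 (*Dars*, *Hars2*, *Pars2* and *Wars2*), all higher (background 6.77%), and DESeq2 also called 0. The median log2 fold change was 0.00 over the cytosolic and 0.01 over the mitochondrial members, and 32 of 35 intervals lay within a fold of 1.5 (background 74.2%). Between day 14 and day 7, 0 of 35 passed in edgeR and in DESeq2 (background 1.29%), and 6 had an unadjusted p under 0.05 (background 14.1%). Those higher at day 14 among the 6 were *Gars*, *Mars*, *Fars2* and *Hars2*, and those lower were *Rars2* and *Tars2*. Total count scaling gave 19 members higher at day 14 than at baseline and 18 lower at day 14 than at day 7, with medians of all genes of 0.22 and -0.25. On that scale 3034 and 4107 of 12195 genes were called in these comparisons.

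Between males and females, over all time points, 0 of 35 members passed (background 0.574%), in edgeR and in DESeq2. Before adjustment, 8 cytosolic members had a p under 0.05 in edgeR and all 8 were higher in males. The background for that rule and direction was 4.38%. They were *Dars*, *Gars*, *Lars*, *Nars*, *Qars*, *Sars*, *Vars* and *Yars*, with log2 fold changes of 0.11 to 0.19, and the smallest adjusted p was that of *Yars* (0.176 in edgeR). *Yars* stood at 39.9 to 53.9 CPM in the 11 females (median 47.8) and at 44.6 to 65.3 in the 12 males (median 55.7). *Gars* stood at 72.3 to 106 CPM in the 11 females (median 94.2) and at 89.6 to 121 in the 12 males (median 107). The ranges of the sexes overlapped for both genes. Of the 20 cytosolic members 18 had a log2 fold change above 0. The largest difference went the other way, with *Wars* lower in males (log2 fold change -0.25), at an unadjusted p not under 0.05. *Wars* stood at 129 to 235 CPM in the 11 females (median 187) and at 117 to 253 in the 12 males (median 142). A higher level in males was also seen in the list of *Atf4* and its targets other than synthetases. Of its 27 genes 16 had an unadjusted p under 0.05 in edgeR, all 16 higher in males, and 3 passed. The median log2 fold change was 0.19 in that list and 0.09 over the cytosolic members. All 35 intervals lay within a fold of 1.5 (background 84.4%). The interaction of sex with time was called for 0 of 35 members and for 0% of 12933 genes in edgeR, and for 0 members in DESeq2, and 0 members had an unadjusted p under 0.05 for both coefficients together (background 4.45%). For the day 7 coefficient alone 2 of 35 members, both cytosolic, had an unadjusted p under 0.05 in edgeR (703 of 12933 genes). Their smallest adjusted p was 0.876 in edgeR. For the day 14 coefficient alone 0 of 35 did (474 of 12933 genes). The intervals of the single coefficients were wide, and 11 of 35 at day 7 and 10 of 35 at day 14 were not within a fold of 1.5.

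Within the groups, the cytosolic synthetase transcripts rose and fell together from mouse to mouse. These relations were examined after the comparisons above had been seen. Log2 CPM was centred on the mean of each sex and time point, so that differences between the groups are removed. Over 190 pairs of cytosolic members the median Pearson r was 0.49, and 47.4% of pairs were over 0.5. Over 105 mitochondrial pairs the median was 0.03 with 1.90% over 0.5, and over the pairs of 1 in 10 of the genes tested the median was 0.00 with 5.05% over 0.5. Genes within the same libraries share their depth and scaling, so these are descriptions across genes.

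*Eprs* and *Nars* were the pair with the highest r, 0.94, followed by *Yars* and *Tars* at 0.90. The members with the lowest median r with the other cytosolic members were *Dars* (0.16), *Wars* (0.27) and *Qars* (0.29). On the mitochondrial side *Nars2* had a median r of 0.61 with the cytosolic members and *Fars2* one of -0.13. The spread between mice of the same group had a median SD of 0.14 on the log2 scale over the cytosolic members, 0.18 over the mitochondrial members and 0.22 over all genes. The part of the lower counts of the mitochondrial members in their lower r was not tested.

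**Figure D4:**
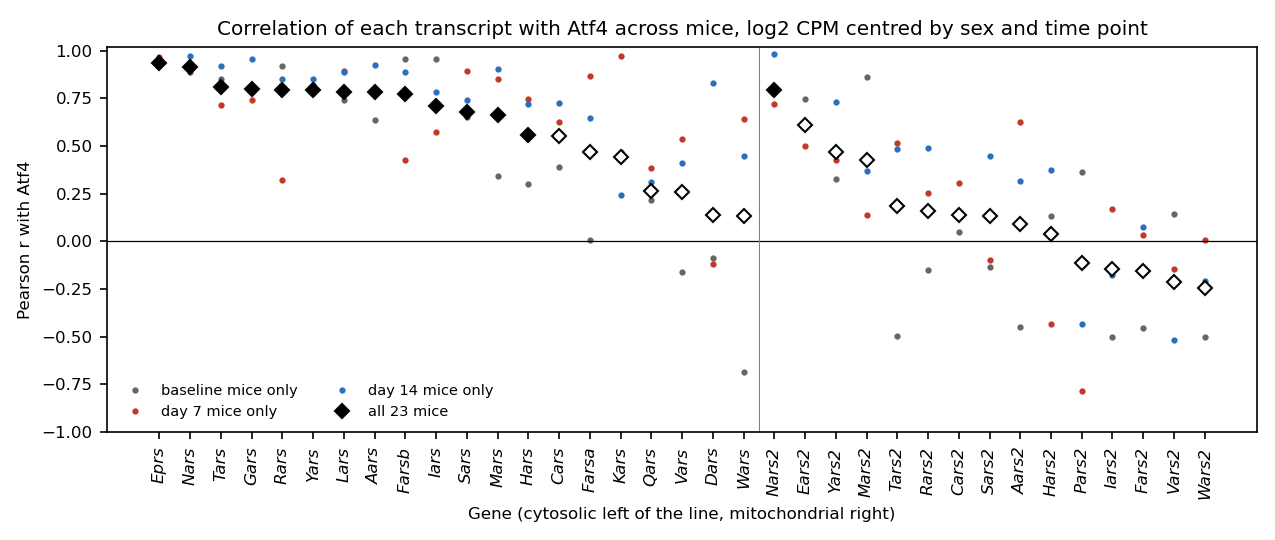
Pearson r of each of 35 synthetase transcripts with *Atf4* over 23 mice (diamonds, filled where the adjusted p is at most 0.05) and over the mice of each time point alone (dots), on log2 CPM centred by sex and time point. The diamonds run from 0.94 for *Eprs* to 0.13 for *Wars* on the cytosolic side and from 0.79 for *Nars2* to -0.24 for *Wars2* on the mitochondrial side.

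The same variation followed *Atf4*. With permutations of the mice within each sex and time point and adjustment over 12194 genes, 13 of 20 cytosolic members and 1 of 15 mitochondrial members had a positive r with an adjusted p of at most 0.05, against 7.79% of all genes. With Spearman's rho the counts were 12 and 2. In alternatives chosen after seeing the data, they fell to 4 and 0 with total count scaling and to 6 and 0 with the TMM factor removed by regression. Of the 13 ATF4-linked members 10 were called (median r 0.78), and of the 7 other cytosolic members 3 were (median r 0.47). The relation was also seen outside the synthetases. Of 38 translation initiation and elongation factors 14 were called with a positive r (median 0.54). Of 26 targets of ATF4 other than synthetases 11 were called with a positive r (median 0.60). The cytosolic median r was 0.69 over 23 mice, 0.70 without the 2 mice farthest from the median of *Atf4*, and 0.64, 0.74 and 0.84 within baseline, day 7 and day 14.

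The bifunctional *Eprs* had the highest r with *Atf4* of all genes tested, 0.94 (rho 0.96, both permutation p = 1e-05, the smallest that 100000 permutations can give, adjusted p = 0.0021 and 0.00203). It was 0.95 without the 2 mice farthest from the median, and 0.95, 0.97 and 0.95 within baseline, day 7 and day 14. For *Nars* r was 0.91 (permutation p = 1e-05, adjusted p = 0.0021) and rho 0.95 (permutation p = 2e-05, adjusted p = 0.00234), with 0.92 without those mice and 0.91, 0.89 and 0.97 within the time points. Both genes were singled out after their values were seen.

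Of the 5 genes shown with the motif, *Tars* had an r of 0.81, *Gars* of 0.80, *Yars* of 0.79, *Aars* of 0.78 and *Iars* of 0.71, and all 5 were called (largest permutation p = 0.00091, adjusted p = 0.0144, for *Iars*). With total count scaling *Aars* alone of the 5 was called, and with the TMM factor removed *Aars* and *Tars* were. Their rho with TMM scaling ran from 0.69 to 0.83. The background for such calls was 7.79% of all genes. *Eprs*, *Farsb*, *Sars* and *Mars* had windows without these letters and were called as well (r of 0.94, 0.77, 0.68 and 0.67). *Dars*, *Farsa*, *Kars* and *Qars* also had windows without the letters and were not called. *Nars* had no window in the table. A link between the letters and the r was not tested. The mitochondrial *Nars2* had an r of 0.79 (permutation p = 4e-05, adjusted p = 0.00277) and a rho of 0.84, and its window did not hold the letters either. Its call was lost with total count scaling and with the TMM factor removed.

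**Figure D5:**
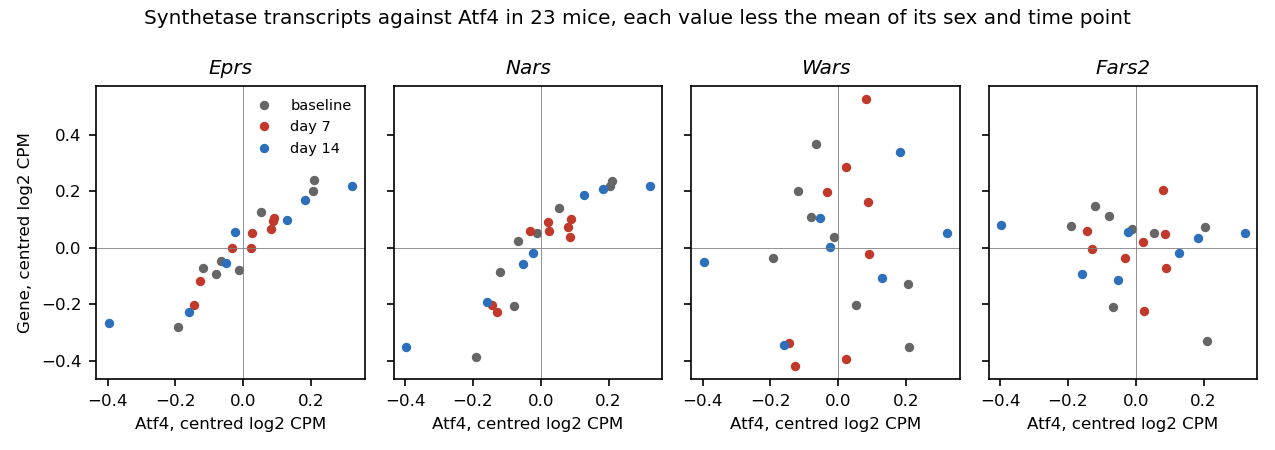
Log2 CPM of *Eprs*, *Nars*, *Wars* and *Fars2* (vertical) against those of *Atf4* (horizontal), each less the mean of its sex and time point, with 1 point per mouse coloured by time point. *Eprs* (r = 0.94) and *Nars* (r = 0.91) lie along a line in all 3 time points, and *Wars* (0.13) and *Fars2* (-0.16) do not.

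The cytosolic members not called were *Cars*, *Dars*, *Farsa*, *Kars*, *Qars*, *Vars* and *Wars*, which does not show that they were unrelated to *Atf4*. *Cars* (r = 0.56, permutation p = 0.0115, adjusted p = 0.0652) lay next to *Hars*, which was called (r = 0.56, permutation p = 0.00721, adjusted p = 0.0478). *Kars* had an r of 0.44 (permutation p = 0.0837, adjusted p = 0.236), with 0.70 without the 2 mice farthest from the median of *Atf4* and 0.97 within day 7. For *Dars*, which rose at day 7, r was 0.14 (permutation p = 0.509, adjusted p = 0.704), and for *Fars2*, which fell, it was -0.16 (permutation p = 0.469, adjusted p = 0.674). *Mars*, which also fell, had an r of 0.67 (permutation p = 0.00122, adjusted p = 0.0168). *Wars* is listed with the ATF4-linked genes and is known to be induced by interferon as well. It had an r of 0.13 (permutation p = 0.468, adjusted p = 0.674), with -0.68 within baseline, 0.64 within day 7 and 0.45 within day 14.

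*Wars* (chr12:108860030-108894174, minus strand), named after its values were seen, also varied most between mice among the cytosolic members. Its level was 117 to 232 CPM at baseline (median 166), 129 to 253 at day 7 (median 172) and 139 to 235 at day 14 (median 155). These ranges pool the sexes. In log2 CPM it was 7.31 to 7.86 in females and 6.88 to 7.45 in males at baseline. At day 7 it was 7.02 to 7.55 in females and 7.04 to 7.99 in males. At day 14 it was 7.20 to 7.88 in females and 7.12 to 7.33 in males. The interaction of sex with time was not called. The SD within groups was 0.30 on the log2 scale, larger than that of 69.0% of the genes tested. The log2 fold change was 0.06 at day 7 (adjusted p = 0.822 in edgeR) and 0.00 at day 14 (adjusted p = 0.997 in edgeR). Of 11 interferon-induced genes tested 2 rose at day 7, *Ifit1* and *Oas1a* (18.2%, background 8.86%), and the median log2 fold change was 0.87. Within the groups, the r of these 11 genes with *Wars* ran from -0.48 to -0.03, with 0 above 0, as a description across genes of the same libraries. Of the 11, 0 were called, and the smallest adjusted p by permutation was 0.641, for *Ifit1*. Of all 12194 genes tested against *Wars*, 0 were called in either direction, so the absence of calls does not set these 11 apart. Spearman's rho was above 0 for *Irf1*, *Stat2*, *Irf7* and *Gbp3*. The median r was 0.03 within baseline, -0.46 within day 7 and -0.34 within day 14. Without the 2 mice farthest from the median of *Wars* it was -0.07.

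Library measures and other cells moved with *Atf4* too. Its centred value had an r of -0.55 with the TMM factor of the library. Called as negatively correlated with *Atf4* were 7 of 11 interferon-induced genes, 3 of 8 macrophage markers and 3 of 4 lymphocyte markers (background 7.57%). Of 17 acinar markers 2 were called as positively correlated (background 7.79%), and all 17 had an r above 0 (median 0.42). All 8 fibroblast markers had an r below 0 (median -0.30), and 0 of them were called. With total count scaling 4 cytosolic members were called (*Aars*, *Eprs*, *Nars* and *Rars*) against 1.47% of genes. With the TMM factor removed by regression 6 were (*Aars*, *Eprs*, *Lars*, *Nars*, *Rars* and *Tars*) against 1.78% of genes. The r of *Eprs* was 0.91 in both and 0.93 to 0.95 without each mouse in turn. The part of the other cells in these relations was not tested.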

How the data were processed

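The deposited files hold whole-number counts of fragments per gene symbol for 23 mice, not normalized. To make these counts, the authors checked reads with FastQC, trimmed them with Trim Galore and cutadapt, aligned them to mm10 with STAR 2.5.2a and counted them with featureCounts, per the labels and the study's methods. Grouping followed the labels. No 2 files held identical values.

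Scaling used TMM factors. Time points and sexes were compared by the quasi-likelihood F test of edgeR 4.0.16 under R 4.3.3 (filterByExpr, glmQLFit with robust = TRUE, two-sided), fitted once to all 23 mice with time point and sex as terms (12195 genes). The interaction came from a fit of 6 groups of sex and time point (12933 genes). Benjamini-Hochberg adjustment ran over all genes of a fit. SEs were derived from the F statistic. A fold of 1.5 was the second threshold. CPM are TMM-scaled counts per 1000000, and log2 CPM have a prior count of 2. Exonic lengths and positions are those of GENCODE vM21 on GRCm38; levels per kb assume that all exons of a gene are used. Correlations used 100000 permutations within the 6 groups (Python 3.11.15, numpy 2.4.6). Both kinds of test were checked on simulated data with known answers. These were counts for the comparisons and normally distributed values, without library sizes or scaling, for the correlations.

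The members and lists were chosen with earlier results of these data known. Values by group are given for members past the test in any comparison and, up to 8 members, for those with the next smallest p at day 7, and at most 4 genes with the smallest p at day 7 were named per other list. *Eprs*, *Nars* and *Wars* were named after their values were seen. A count of 3 was taken as the smallest detectable, 0.224 to 0.522 CPM depending on the mouse; it covers counting error only. Alternatives were DESeq2 1.42.0, 3 other scalings, 2 other filters, fits of only the mice compared, other covariates, each sex alone and leaving out each mouse. The mapping rates of the libraries were not used here. A further promoter stretch is not reported here.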

Additional observations from a re-analysis of the deposited data

Results flagged for a closer look

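The highest and the lowest mouse of each group were compared with Dixon's 95% critical values for the 8 members with values by group and for *Wars*, *Eprs* and *Nars*. In 33 groups of 7 or 8 mice 0 exceeded it, where chance flags about 1 group in 20. The interaction of sex with time was called for 0 members.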

How the results depend on the processing

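The count of 4 members at day 7 was 3 or 4 with DESeq2, DESeq2's size factors in edgeR, total counts without the 20 most abundant genes, both other filters, only the mice compared, no sex covariate and each mouse left out. It was 34 with total count scaling (9336 of 12195 genes called), 1 in females alone (531 of 12338), 0 in males alone (886 of 12136), and 0 with *Lars2* as a covariate, where 16 genes of all tested were called; *Lars2* was higher at baseline (385 to 741 CPM) than at day 7 (187 to 348), so the effect of this covariate cannot be told apart from that of time. With total counts, 19 members were called at day 14 and 18 between day 14 and day 7. The medians of the cytosolic and mitochondrial members were then 0.42 and 0.50 at day 7, 0.22 and 0.22 at day 14, and -0.21 and -0.22 between day 14 and day 7. With *Lars2* as a covariate they were 0.080 and 0.14 at day 7, and the mitochondrial median was 0.11 at day 14 and -0.059 between day 14 and day 7; without the 20 most abundant genes it was 0.13 at day 7.

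Reversed at day 7 with total counts were *Fars2* (0.090), *Mars* (0.23), *Qars* (0.33), *Yars* (0.31) and *Sars* (0.30), at day 14 *Fars2* (0.094) and *Mars* (0.16), and between day 14 and day 7 *Mars* (-0.070). Reversed with *Lars2* as a covariate were *Mars* (0.086), *Yars* (0.015) and *Sars* (0.0020) at day 7 and *Mars* (0.15) at day 14. Total counts move all genes alike; apart from that, the cause was not tested. The 4 calls at day 7 kept their direction in each sex alone, with *Fars2* called in females (adjusted p = 0.0471 in edgeR) and the other 3 in neither sex; those fits hold fewer mice. *Mars* was also lost without the 20 most abundant genes (adjusted p = 0.0639 in edgeR).

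Chosen after seeing the data, the correlation with *Atf4* was repeated with total counts (4 cytosolic members called), with the TMM factor removed (6) and without each mouse (9 to 14), in place of 13; the mitochondrial count was 0 in the first 2 of these, in place of 1. The counts of 0 at day 14, between day 14 and day 7, between the sexes and for the interaction stayed at 0 in the other alternatives. No paired analysis was possible because each replicate number belongs to 1 mouse and occurs in 1 group only. Low counts limit *Pars2*, *Sars2* and *Wars2*.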
